A study of Mus musculus with 6 samples.

Results

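Collagens are the triple-helical proteins that give the extracellular matrix its fibers and sheets, and 43 protein-coding genes of this family were followed among the 26437 genes measured in E10 mouse eye tissue. The members were all genes whose name consists of Col, a number, the letter a and a number. They comprise 11 chains of fibrillar collagens, 6 chains of type IV collagen, which builds basement membranes, and 26 other chains. All 43 passed the filter on low values (a mean above 0.5 over all libraries), which left 22921 genes for testing. The samples were 3 wild-type (WT) and 3 *Rdh10* knockout (KO) RNA libraries, each made from a pool of 3 embryos of an outbred Black Swiss and C57BL/6 mix, and the KO embryos were *Rdh10*-/- offspring of heterozygous parents. *Rdh10* encodes a retinol dehydrogenase of the retinoic acid (RA) pathway, and the comparison asks what differs when RA synthesis through it is lost in the whole embryo. The dissected tissue held the optic vesicles together with facial mesenchyme, surface ectoderm and some forebrain, and the labels give it as craniofacial tissue and as eye. In such bulk tissue, fewer cells of a type and less RNA per cell cannot be told apart.

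A collagen molecule is a trimer of alpha chains that is hydroxylated and folded in the endoplasmic reticulum, secreted, trimmed and cross-linked outside the cell. Type I, III and V chains form the fibers of loose mesenchyme, type II and XI chains those of cartilage and of notochord and eye matrix. Type IV chains form the network under epithelia and around vessels, with laminins, nidogens and perlecan.

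Between 16392777 and 27101025 reads fell on genes in each library. Values are normalized counts, which are reads scaled by library but left unscaled by length, and 1 read was worth 0.716 to 1.18 normalized counts. *Rdh10* itself was at 399, 342 and 381 normalized counts in the WT libraries and at 183, 142 and 181 in the KO libraries. Its transcript level in the KO was thus 45.1% of WT, with no overlap between the groups. Whether the counted exons include the removed part of the gene is not given in the sources used here. All 9 markers of optic vesicle and forebrain neuroepithelium and the mesenchyme markers *Twist1*, *Prrx1* and *Pdgfra* were detected in every library.

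Most collagen genes with a clear change were higher in the KO. Of the 43 genes, 14 rose, 1 fell and 28 did not pass the test (limma, adjusted p under 0.05 by the Benjamini–Hochberg method over all genes tested). Over all genes tested, 10.3% rose and 9.12% fell under the same rule. With the cut-off of 0.85 on the log2 fold change added, 0 collagens were higher and 1 was lower, beside 2.41% and 0.886% of all genes tested. Without adjustment limma gave 17 collagens higher and 2 lower at p under 0.05, and DESeq2 and both tests of edgeR (quasi-likelihood and likelihood ratio) each called the same 14 genes higher at an adjusted p under 0.05. In 16 collagens all KO values lay above all WT values and in 4 they lay below, whereas this held for 17.6% and 17% of all genes tested. The median log2 fold change was 0.26 over the collagens and 0.00 over all genes tested, and 30 of the 43 values were positive.

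These counts changed with the intensity trend of the test and with the libraries included. Without the intensity trend limma called 0 collagens higher, with 15 at an unadjusted p under 0.05. Leaving out *Rdh10* KO replicate 2 left 13 collagens higher, leaving out KO replicate 1 left 9, and leaving out KO replicate 3 left 4. Without WT replicate 1 only *Col4a5* stayed past the threshold as higher, without WT replicate 2 only *Col3a1*, and without WT replicate 3 *Col3a1*, *Col4a6* and *Col6a1*. The number of higher genes over the whole table fell at the same time, from 2360 to 888, 850 and 1211. At an unadjusted p under 0.05 there were 15 or 16 higher collagens in each of these 6 fits, and the fold changes of all 14 genes stayed positive in them.

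The collagens that rose were the abundant ones. All 14 lay among the 26 collagens with a mean above 100 normalized counts, whose median log2 fold change was 0.29. Of the 17 collagens at or below that mean, 0 rose and 1 fell in limma, with a median of 0.01. At an unadjusted p under 0.05 these were 1 and 2, and edgeR's quasi-likelihood test called 0 and 1. Calls went with level over the whole table too. Of the genes with a mean above 10, 15.0% rose and 13.4% fell, beside 10.3% and 9.12% of all genes tested. The part of level in the split among collagens was not tested. Annotated exon length, merged over all transcripts of a gene, was also large in collagens, with a median of 7621 bases against 3213 for all genes tested. Among the 2378 genes with a mean above 10 and an exon length between the quartiles of the collagens (6456 and 9502 bases), 22.8% rose, 8.41% fell and the median log2 fold change was 0.09.

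**Figure D1:**
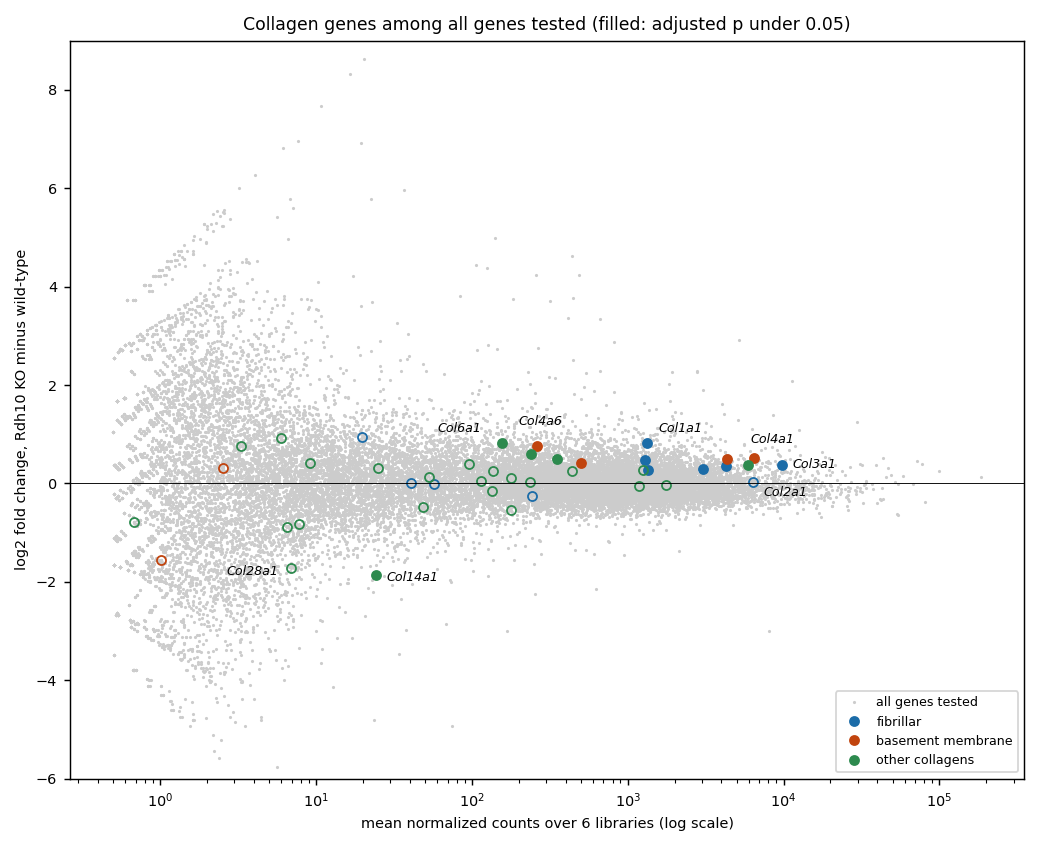
Log2 fold change (*Rdh10* KO minus WT) of each gene tested against its mean normalized count over 6 libraries on a log scale. Grey points are all genes, coloured circles are the 43 collagens by class and filled circles passed limma at an adjusted p under 0.05. The 14 collagens that rose sit on the right at log2 fold changes between 0.28 and 0.82, and *Col14a1* is the filled circle at -1.87.

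Summed over all members, collagens took 2441, 2472 and 2114 of every 1000000 normalized counts in the WT libraries and 3010, 2603 and 3321 in the KO libraries. The KO mean was 127% of the WT mean (2978 ± 360 against 2342 ± 198, SD, n = 3), and all KO libraries lay above all WT libraries. Relative to their WT mean, the type IV chains gained most as a class, from 484 ± 45.4 to 700 ± 118 on the same scale or 145% of WT. The fibrillar chains went from 1269 ± 99.8 to 1577 ± 154, a larger gain in counts but 124% of WT. The other chains stood at 119% of WT, with overlapping groups.

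The KO libraries were not alike. Over the 26 abundant collagens, KO replicate 3 gave the highest KO value for 19 genes and KO replicate 2 the lowest for 22. In the WT group, replicate 3 was lowest for 21 of the 26. The embryonic blood genes split the KO libraries in another way, with a summed level of 42.3% of the WT mean in KO replicate 1, 99.4% in replicate 2 and 129.5% in replicate 3. The part of these library differences in the results was not tested.

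**Figure D2:**
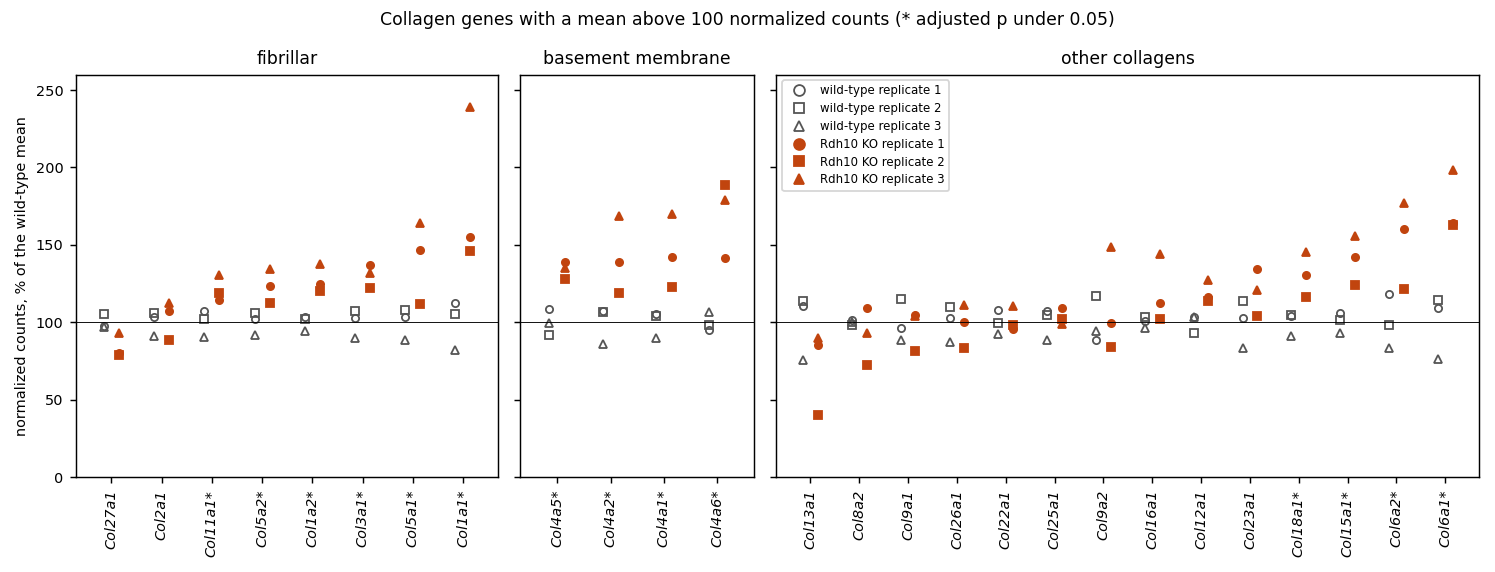
Normalized counts of the 26 collagens with a mean above 100 in each library as a percentage of the gene's WT mean, by class. Open grey symbols are the 3 WT libraries, filled orange symbols the 3 *Rdh10* KO libraries, and an asterisk marks an adjusted p under 0.05 in limma. The 4 type IV chains shown have no overlap between groups, and *Col1a1* in KO replicate 3 is the highest symbol.

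Fibrillar collagens, the rope-forming family, counted 6 genes that rose, 0 that fell and 5 that did not pass in limma, with a median log2 fold change of 0.30. At an unadjusted p under 0.05 limma gave 7 higher and 0 lower, and the 2 edgeR tests and DESeq2 also called 6 higher and 0 lower. *Col3a1* (chr1:45311538-45349706 in GRCm38, plus strand), the single chain of type III collagen of soft tissues, had the highest mean of the collagens per unit of annotated exon length. It was at 8707, 9109 and 7655 normalized counts in WT and at 11628, 10373 and 11196 in KO. Every KO library lay above every WT library, a log2 fold change of 0.38 ± 0.08 (SE, limma adjusted p = 0.00282).

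The bases just before the annotated start of *Col3a1* show what its proximal promoter holds (RefSeq, GRCm38.p6, chr1:45311288-45311537, plus strand). The capitals mark TATAAA, and neither CCAAT nor a GC box of the letters GGGCGG occurs on either strand of this stretch.
Col3a1: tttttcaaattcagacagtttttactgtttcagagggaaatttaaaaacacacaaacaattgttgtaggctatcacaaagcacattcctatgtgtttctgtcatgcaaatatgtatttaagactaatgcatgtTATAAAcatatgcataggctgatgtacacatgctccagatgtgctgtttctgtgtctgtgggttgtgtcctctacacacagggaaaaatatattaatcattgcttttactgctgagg

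*Col1a1* and *Col1a2* encode the 2 chains of type I collagen, the main fiber of skin, bone and tendon. *Col1a1* was at 1075, 1007 and 786 normalized counts in WT and at 1482, 1396 and 2282 in KO, or 180% of WT. The groups stood apart, and KO replicate 3 was well above the other KO libraries. Its log2 fold change of 0.82 ± 0.16 (SE, limma adjusted p = 0.00233) was, with that of *Col6a1*, the highest among the collagens that rose. *Col1a2* was at 3901, 3851 and 3552 in WT and at 4707, 4520 and 5187 in KO, again without overlap, a log2 fold change of 0.35 ± 0.07 (SE, limma adjusted p = 0.00382).

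Type I molecules normally hold more of the first chain than of the second, and the transcripts per length were read against each other in each library. The ratio of *Col1a1* to *Col1a2* in FPKM (reads scaled by exon length and library depth) was 0.522, 0.495 and 0.419 in WT and 0.596, 0.585 and 0.833 in KO. All KO ratios lay above all WT ratios, and the height of the ratio itself rests on the exon lengths used. With 3 libraries against 3, the exact two-sided permutation test gave p = 0.1, the smallest it allows, and 0.367 after adjustment over the 11 chain ratios compared. *Col3a1* to *Col1a1* moved the other way, from 5.41, 6.05 and 6.51 to 5.25, 4.97 and 3.28, also without overlap and with the same exact p-values.

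The type V and XI chains set the width of fibers from within. *Col5a1* was at 1110, 1157 and 950 normalized counts in WT and at 1571, 1201 and 1758 in KO, so that KO replicate 2 lay just above the highest WT library. Its log2 fold change was 0.48 ± 0.12 (SE, limma adjusted p = 0.0128). *Col5a2*, which lies tail-to-tail with *Col3a1* on chromosome 1, was at 2764, 2877 and 2491 in WT and at 3352, 3046 and 3643 in KO, a log2 fold change of 0.30 ± 0.08 (SE, limma adjusted p = 0.0175). *Col11a1* was at 1309, 1242 and 1102 in WT and at 1391, 1448 and 1590 in KO, a log2 fold change of 0.28 ± 0.09 (SE, limma adjusted p = 0.035). These 3 genes had KO values above all WT values.

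Several fibrillar values moved with the treatment of exon length and base composition. After a correction for GC content and exon length, *Col1a2* had a log2 fold change of 0.14 (limma adjusted p = 0.0671), *Col5a2* also 0.14 (adjusted p = 0.16) and *Col11a1* 0.04 (adjusted p = 0.774). *Col3a1* stayed past the threshold at 0.22 (adjusted p = 0.0184), as did *Col1a1* at 0.78 and *Col5a1* at 0.38.

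*Col2a1*, the cartilage and notochord collagen that early eye and brain epithelia also express, did not move with its class. It was at 6437, 6605 and 5675 normalized counts in WT and at 6685, 5543 and 7026 in KO, with overlapping groups and a log2 fold change of 0.04 ± 0.09 (SE, limma adjusted p = 0.832). The sign of this value was negative in 5 of the other analyses. Of the remaining fibrillar chains, *Col11a2* and *Col24a1* had log2 fold changes of -0.01 and 0.01 with overlapping groups. *Col5a3* stood at 14.1 ± 6.34 in WT and 25.3 ± 1.62 in KO normalized counts (SD, n = 3), a log2 fold change of 0.94 that missed the threshold (limma adjusted p = 0.151).

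*Col27a1*, a fibrillar chain of cartilage, was the one member of the class with all KO values (212, 209 and 246) below all WT values (259, 278 and 257). Its log2 fold change was -0.25 ± 0.12 (SE, limma adjusted p = 0.178), and it was -0.46 with an adjusted p of 0.00872 after the correction for GC content and exon length.

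Basement membrane collagens comprise 3 head-to-head gene pairs, and both genes of 2 of the pairs rose. In limma 4 chains were higher, 0 were lower and 2 did not pass, with a median log2 fold change of 0.46. At an unadjusted p under 0.05 the counts were also 4 and 0, and edgeR and DESeq2 called the same numbers. *Col4a1* and *Col4a2* encode the chains of the common type IV network. *Col4a1* was at 5546, 5474 and 4731 normalized counts in WT and at 7457, 6462 and 8921 in KO, a log2 fold change of 0.53 ± 0.10 (SE, limma adjusted p = 0.00242). *Col4a2* was at 3861, 3830 and 3084 in WT and at 4999, 4262 and 6047 in KO, a log2 fold change of 0.50 ± 0.11 (SE, limma adjusted p = 0.00724). For both genes the lowest KO library exceeded the highest WT library.

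The starts of this pair, *Col4a1* on the minus and *Col4a2* on the plus strand of chromosome 8, lie so close that the annotated genes overlap by 22 bases. The shared stretch is shown on the plus strand (GRCm38.p6, chr8:11312801-11312830), with the bases from one start to the other in capitals.
Col4a1 and Col4a2: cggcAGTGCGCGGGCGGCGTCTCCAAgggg

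The FPKM ratio of *Col4a1* to *Col4a2* was 1.27, 1.27 and 1.36 in WT and 1.32, 1.34 and 1.31 in KO. These ratios overlapped (exact two-sided permutation p = 0.5), and their difference on the log2 scale was 0.03.

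*Col4a5* and *Col4a6*, on the X chromosome, form networks in the lens capsule, kidney and smooth muscle. *Col4a5* was at 465, 394 and 425 normalized counts in WT and at 594, 548 and 578 in KO, a log2 fold change of 0.42 ± 0.10 (SE, limma adjusted p = 0.00774). *Col4a6* was at 184, 190 and 206 in WT and at 274, 365 and 346 in KO, a log2 fold change of 0.75 ± 0.13 (SE, limma adjusted p = 0.00149), the lowest adjusted p among the collagens. Neither gene overlapped between groups. The pair's FPKM ratio was 3, 2.46 and 2.45 in WT and 2.58, 1.78 and 1.98 in KO, with overlap (exact two-sided permutation p = 0.3).

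Their starts lie 1309 bases apart and face away from each other. The stretch before each start is printed for the 2 genes, each 5′ to 3′ along its own strand (RefSeq, GRCm38.p6; *Col4a5* chrX:141475169-141475384, plus; *Col4a6* chrX:141474077-141474326, minus). Capitals mark a CCAAT box, a GC box of the letters GGGCGG, or a TATAAA box, on either strand.
Col4a5: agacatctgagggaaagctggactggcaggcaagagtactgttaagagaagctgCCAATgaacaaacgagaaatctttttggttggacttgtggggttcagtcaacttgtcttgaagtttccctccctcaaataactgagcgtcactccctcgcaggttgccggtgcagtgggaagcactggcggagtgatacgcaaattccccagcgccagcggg
Col4a6: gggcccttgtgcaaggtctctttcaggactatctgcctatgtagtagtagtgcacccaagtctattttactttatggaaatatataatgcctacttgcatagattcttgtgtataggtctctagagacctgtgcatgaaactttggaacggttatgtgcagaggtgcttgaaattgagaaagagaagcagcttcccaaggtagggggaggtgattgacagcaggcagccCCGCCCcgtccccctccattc

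Of these printed stretches, the first holds CCAAT and the second the reverse complement of GGGCGG. The longer RefSeq window of *Col4a5*, to chrX:141475468, also holds GGGCGG, with no full copy in the printed bases. *Col4a3* and *Col4a4*, the chains of the mature glomerular network, were close to the floor of 3 reads (2.15 to 3.53 normalized counts). *Col4a3* had at most 2.23 normalized counts in any library and *Col4a4* at most 6.68, so no change was detectable at this depth.

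Over the 34 collagens with a RefSeq promoter window (250 bases before to 50 after a start, 37 windows), short motifs were counted on both strands. Of the 14 windows of 12 genes that rose, 71.4% held GGGCGG, the core of Sp1-type GC boxes. Not all of these windows are independent. Those of *Col4a1* and *Col4a2* overlap and share the GGGCGG of the junction printed above, and those of *Col6a2* overlap each other. The share was 56.5% in the 23 windows of the other collagens and 56.4% in the windows of all genes tested. CCAAT stood in 42.9%, 30.4% and 37.0% of these windows, and TATAAA in 7.14%, 13.0% and 8.12%. The hexamer AGGTCA, a half-site of RA receptors and other nuclear receptors, stood in 7.14%, 30.4% and 13.2%, and in 16.3% of all promoter windows.

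The other collagens comprised 4 genes that rose, 1 that fell and 21 that did not pass in limma, with a median log2 fold change of 0.13. Both multiplexins, the basement membrane-associated collagens whose cleaved ends include endostatin, rose. *Col18a1* was at 5360, 5396 and 4694 normalized counts in WT and at 6726, 5995 and 7495 in KO, a log2 fold change of 0.38 ± 0.09 (SE, limma adjusted p = 0.00593). *Col15a1* was at 310, 297 and 272 in WT and at 417, 363 and 457 in KO, a log2 fold change of 0.49 ± 0.12 (SE, limma adjusted p = 0.00915). Groups did not overlap for these genes. *Col18a1* overlaps the annotated gene *Slc19a1* on the opposite strand, and the strand setting of the counting is not given in the sources used here.

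Among the 7 microfibrillar chains, 2 rose and 0 fell in limma, with 2 and 1 at an unadjusted p under 0.05 and 2 and 0 in edgeR's quasi-likelihood test. *Col6a1* and *Col6a2*, neighbors on chromosome 10, encode chains of the beaded type VI filaments around cells. *Col6a1* was at 125, 131 and 87.5 normalized counts in WT and at 188, 187 and 227 in KO, a log2 fold change of 0.82 ± 0.18 (SE, limma adjusted p = 0.00492). *Col6a2* was at 226, 188 and 159 in WT and at 306, 231 and 338 in KO, a log2 fold change of 0.61 ± 0.17 (SE, limma adjusted p = 0.0184). For *Col6a2* the gap between the groups was narrow. Their partner chain *Col6a3* was at 83.1 ± 26.1 in WT and 110 ± 38.7 in KO (SD, n = 3) with overlap, a log2 fold change of 0.40 (limma adjusted p = 0.356).

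*Col14a1* (chr15:55307750-55520803, plus strand), a fibril-associated collagen of the FACIT type that binds to the surface of type I fibers, was the only collagen that fell in limma. It was at 43, 30.1 and 41.4 normalized counts in WT and at 8.59, 10.7 and 11.8 in KO, or 27.1% of WT. The groups were well apart, a log2 fold change of -1.87 ± 0.37 (SE, limma adjusted p = 0.00308). Without WT replicate 1 the adjusted p was 0.0539. The rest of the 9 FACIT genes gave 0 calls in limma and in edgeR's quasi-likelihood test, and 1 at an unadjusted p under 0.05 (*Col12a1*, higher), with log2 fold changes between -0.47 for *Col9a3* and 0.92 for *Col20a1*.

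The next 3 of the other chains by mean level after *Col18a1* did not pass the test. *Col9a1*, a FACIT chain bound to type II fibers, had a log2 fold change of -0.05 and *Col26a1* of -0.03, both with overlapping groups. *Col26a1* was at 1825, 1956 and 1550 in WT and at 1783, 1487 and 1980 in KO. *Col23a1*, a transmembrane collagen, was at 1169, 1292 and 945 in WT and at 1526, 1180 and 1372 in KO, with overlap and a log2 fold change of 0.26 ± 0.12 (SE, limma adjusted p = 0.139).

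*Col28a1*, a chain of low level, was not called by limma. It was at 9.21, 16.7 and 6.58 normalized counts in WT and at 3.58, 2.13 and 3.53 in KO, without overlap (limma adjusted p = 0.0949). The adjusted p was 0.0346 in edgeR's likelihood ratio test, 0.0727 in its quasi-likelihood test and 0.0888 in limma after the GC content and exon length correction. The remaining 9 chains had log2 fold changes between -0.89 for *Col6a4* and 0.42 for *Col6a6*, and 0 of them passed in limma, adjusted or unadjusted, or in either edgeR test. *Col6a4* was at 5.12, 2.23 and 7.52 normalized counts in WT and at 9.31, 0 and 15.3 in KO, so that its sign rests on 1 KO library at 0 reads, and edgeR gave 0.69. *Col6a5* had at most 3 reads in every library.

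**Figure D3:**
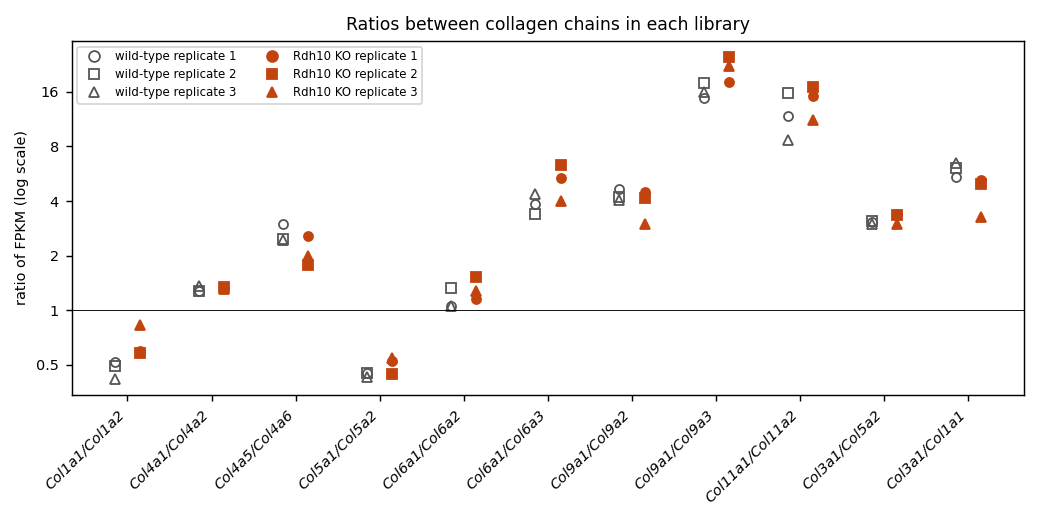
Ratio of FPKM between chains of a collagen or neighboring collagen genes in each library, on a log axis. Open grey symbols are WT and filled orange symbols *Rdh10* KO libraries, with 1 symbol shape per replicate. The ratios of *Col1a1* to *Col1a2*, *Col3a1* to *Col1a1* and *Col9a1* to *Col9a3* do not overlap between groups, and the other 8 do.

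Levels per length put the changes in proportion. In WT, *Col3a1* had the highest mean with 44.2 ± 3.87 FPKM (SD, n = 3), before *Col18a1* (37.5 ± 2.87), *Col4a1* (35.9 ± 3.09) and *Col2a1* (34.5 ± 2.72). The ranges of mean ± SD of the last 3 overlapped, and those of *Col3a1* and *Col18a1* just met. In KO, *Col3a1* reached 57.9 ± 3.91 FPKM, *Col4a1* 52.4 ± 9.10 and *Col18a1* 49.3 ± 6.05, and the ranges of mean ± SD of these 3 genes overlapped. *Col1a1* moved from the 11th to the 8th place, from 7.44 ± 1.18 to 13.5 ± 3.96 FPKM.

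Genes that modify and fold collagen chains were read beside them, using lists that were chosen with earlier results of these data known. Of 20 synthesis and modification genes, 10 rose, 0 fell and 10 did not pass in limma, with a median log2 fold change of 0.34. Unadjusted, 12 were higher and 0 lower, and edgeR's quasi-likelihood test called 11 and 0. *P4ha1* and *P4ha2*, subunits of the prolyl 4-hydroxylases that make the hydroxyprolines holding the helix together, had the largest values. *P4ha1* was at 1355, 1269 and 1188 normalized counts in WT and at 3687, 5351 and 5332 in KO, a log2 fold change of 1.90 ± 0.12 (SE, limma adjusted p = 5.65e-07). *P4ha2* rose by 1.59 on the log2 scale, and their shared partner *P4hb* by 0.36. Every KO library exceeded every WT library for these 3 genes. The subunit *P4ha3* stood at -0.20 (limma adjusted p = 0.753).

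Lysyl hydroxylases prepare the sites of cross-links. *Plod2* rose from 1120, 1128 and 1283 normalized counts to 2740, 3528 and 3331, a log2 fold change of 1.44 ± 0.10 (SE, limma adjusted p = 7.96e-07). *Plod1* and *Plod3* rose by 0.77 and 0.39, the prolyl 3-hydroxylase *P3h2* by 1.18, and *Creb3l1*, a transcription factor known to drive collagen secretion, by 1.25 ± 0.32 (SE, limma adjusted p = 0.0139). *Creb3l1* was at 75.7, 35.6 and 36.7 normalized counts in WT and at 83.8, 92.8 and 170.6 in KO, a narrow gap. Its limma adjusted p reached 0.189 with 1 library left out. *Serpinh1*, the collagen chaperone HSP47, did not pass, with a log2 fold change of 0.07 ± 0.07 (SE, limma adjusted p = 0.578).

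Secretion and propeptide processing genes went both ways, with 3 of 13 higher and 2 lower in limma. The counts were 3 and 4 unadjusted, and 3 and 2 in edgeR's quasi-likelihood test. In limma these were 23.1% and 15.4% of the list, beside 15.0% and 13.4% of the genes with a mean above 10. The coat proteins *Sec23a* and *Sec24d* rose by 0.40 and 0.50 on the log2 scale, and *Adamts3*, a procollagen peptidase, by 0.62. *Sar1b*, a small GTPase of the same coat, fell by 0.41, and *Bmp1*, the C-propeptide peptidase, fell by 0.27. Of 7 cross-linking genes, 2 rose in limma (3 unadjusted, 2 in edgeR's quasi-likelihood test) and 0 fell in any of them. The share higher in limma was 28.6%, beside the same 15.0%, and 22.8% of such genes of collagen-like exon length. The lysyl oxidase *Loxl2* rose by 1.07 ± 0.12 (SE) and the peroxidase *Pxdn*, which joins type IV chains, by 0.25. After the correction for GC content and exon length, the limma adjusted p was 0.254 for *Pxdn*. It was 0.0438 for *Tgm2*, which did not pass without the correction. *Lox* did not pass at 0.35 ± 0.19 (SE, limma adjusted p = 0.224).

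The proteins that share basement membranes with type IV collagen had the highest median of the collagen-related lists, 0.62 over 22 genes, of which 14 rose and 1, *Smoc1*, fell in limma. These were 63.6% and 4.55% of the list, beside 15.0% and 13.4% of the genes with a mean above 10. In edgeR's quasi-likelihood test 14 were higher and 0 lower. The laminin chains *Lama4*, *Lama5*, *Lamc1* and *Lamb1* rose by 1.09, 1.02, 0.86 and 0.85, *Nid2* and the perlecan gene *Hspg2* by 0.98 and 0.95, and *Frem2*, *Fras1* and *Smoc2* by 1.05, 0.94 and 1.17. *Lama1*, *Nid1* and *Sparc*, which binds collagen during secretion, rose by 0.59, 0.56 and 0.40. *Lamc1* stood at 2313, 2153 and 1911 normalized counts in WT and at 3814, 3543 and 4243 in KO, a log2 fold change of 0.86 ± 0.09 (SE, limma adjusted p = 2.45e-05). No gene named here as risen overlapped between groups.

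Fibril-associated matrix genes counted 9 higher of 23 tested, 0 lower and a median of 0.34 in limma, beside 10 and 1 unadjusted and 10 and 0 in edgeR's quasi-likelihood test. The share higher in limma was 39.1%, beside 15.0% of the genes with a mean above 10. After the correction for GC content and exon length, *Postn*, *Fbn1* and *Fbn2* no longer passed (limma adjusted p = 0.107, 0.101 and 0.311). *Eln*, which did not pass without the correction, then did (limma adjusted p = 0.0379). *Bgn*, a small proteoglycan that binds collagen, rose by 1.43, *Fn1*, the fibronectin on which collagen fibers assemble, by 1.11 and *Thbs1* by 1.01. Among 8 receptor genes, 2 rose and 0 fell in limma (4 and 0 unadjusted, 2 and 0 in edgeR), with *Itgb1*, the common beta chain of collagen-binding integrins, at 0.34 and *Mrc2*, an endocytic collagen receptor, at 0.40. The discoidin receptors *Ddr1* (0.12, limma adjusted p = 0.326) and *Ddr2* (0.19, adjusted p = 0.103) did not pass. Among 10 tested degradation genes, *Timp3*, a matrix-bound protease inhibitor, rose by 1.31, *Mmp2* by 0.31, and *Timp2* fell by 0.49.

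**Figure D4:**
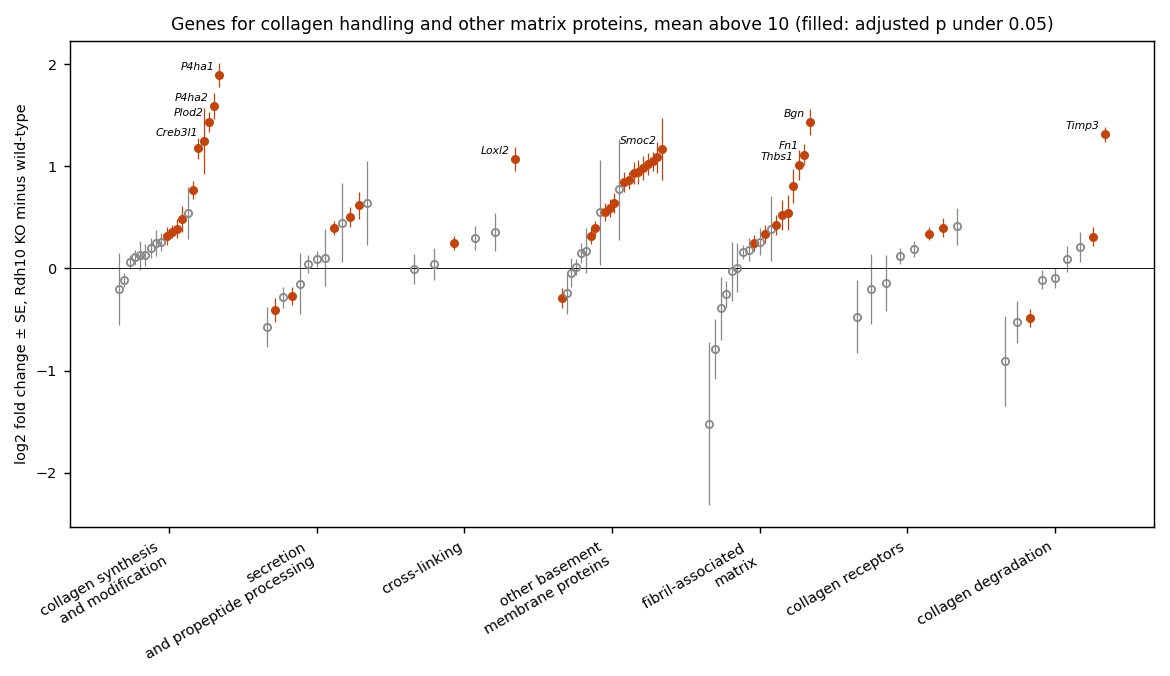
Log2 fold change ± SE (*Rdh10* KO minus WT) of genes for collagen handling and other matrix proteins with a mean above 10 normalized counts, sorted within each list. Filled orange points passed limma at an adjusted p under 0.05 and open grey points did not. *P4ha1*, *P4ha2* and *Plod2* lie highest at 1.90, 1.59 and 1.44, and the other basement membrane proteins form a run of filled points above 0.

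Markers of other cell types were read in the same libraries. The 12 endothelial markers summed to 95.6% to 105.9% of their WT mean in WT and to 133.6% to 141.1% in KO, with 7 higher and 0 lower in limma (7 and 1 unadjusted, 7 and 0 in edgeR) and no marker at 0 in any library. The share higher in limma was 58.3%, beside 15.0% of the genes with a mean above 10. *Flt1*, a VEGF receptor, rose by 1.38 and *Pecam1* by 0.80 on the log2 scale, whereas *Cldn5* stood at -0.34 (limma adjusted p = 0.12). Of the craniofacial and perioptic mesenchyme markers, *Alx4* and *Msx1* fell by 0.95 and 0.77 on the log2 scale and *Dlx2* rose by 0.70, whereas *Twist1*, *Prrx1* and *Pdgfra* did not pass in limma. The part of any cell type in the collagen values was not tested.

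Among the 6 tested placenta and decidua markers, 3 rose. The WT libraries were at 0 for the prolactin-family gene *Prl8a2*, which stood at 32.2, 13.9 and 18.8 normalized counts in KO, and at 0 for *Prl3d1*. *Ascl2* was at 0, 2.23 and 0 in WT and at 21.5, 62.9 and 30.6 in KO. The whole list, of which *Plac1* gave most of the WT signal, summed to 35.6 to 43 normalized counts in WT and 85.9 to 114.1 in KO, below 1% of the summed collagen counts. Its part in the collagen values was not tested. Optic vesicle and forebrain markers counted 3 higher and 1 lower of 9 in limma (3 and 3 unadjusted, 3 and 1 in edgeR's quasi-likelihood test). In limma these were 33.3% and 11.1%, beside 15.0% and 13.4% of the genes with a mean above 10. Cartilage and bone progenitors counted 1 higher and 1 lower of 10 (1 and 1 unadjusted, 2 and 0 in edgeR), close to the shares over all genes tested, and surface ectoderm 2 higher and 0 lower of 8 in limma. Unadjusted, the ectoderm counts were 2 and 1, and edgeR's quasi-likelihood test called 2 and 1. For yolk sac and parietal endoderm 0 of 9 markers passed in either direction in limma, unadjusted or in edgeR. For embryonic blood 0 of 8 passed in limma, and 1 was lower unadjusted and in edgeR.

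**Figure D5:**
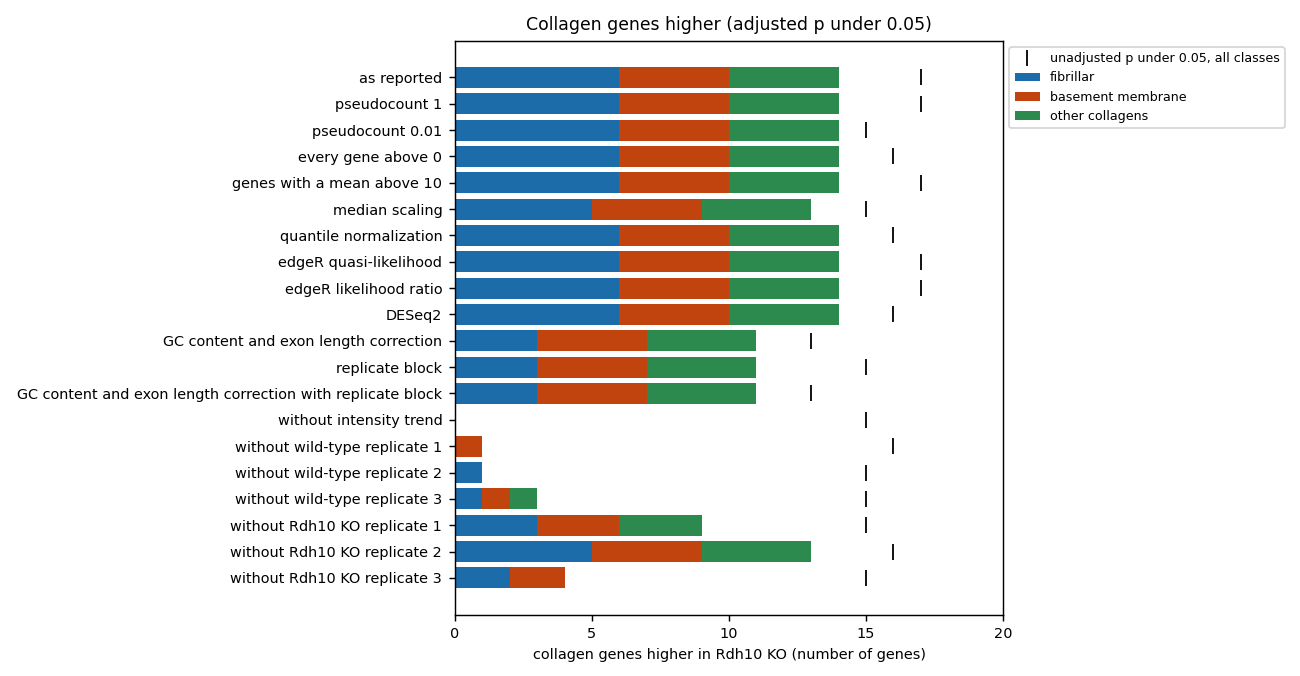
Number of collagens higher in *Rdh10* KO at an adjusted p under 0.05 under each analysis, stacked by class, with a tick for the number at an unadjusted p under 0.05. The count is 14 as reported and under the count models, 11 with the GC content and exon length correction, between 1 and 13 when 1 library is left out, and 0 when the intensity trend is left out of limma, while the ticks stay between 13 and 17.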

How the data were processed

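Total RNA from E10 craniofacial and eye tissue was sequenced from directional, poly(A)-selected libraries. Per the paper, the authors aligned reads to mm10 with TopHat, estimated transcript abundance, normalized by FPKM and tested with edgeR. The deposited signal, 1 value per gene and library, was not length-scaled: it held whole reads divided by a size factor, recovered as whole (within 0.1 read) for 100% of values in each library. 1 line named no gene, and no sample column of other origin was present (0).

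Genes with a mean above 0.5 were tested with limma 3.58.1 in R 4.3.3 on log2(value + 0.1), with an intensity trend and genotype as the only term. With this pseudocount, 1 library at 0 reads can set the size or the sign of a low gene's fold change. As alternatives, recovered reads were tested with edgeR 4.0.16, whose quasi-likelihood test called 2190 genes lower and 2608 higher, and with DESeq2 1.42.0. The test was assumed to run on FPKM at first, and limma was kept. The fits were tested on simulated data. Replicates are pools of different embryos, and p-values measure the spread between 3 such pools per group. FPKM for comparing levels was computed from recovered reads and GENCODE release M21 exon lengths, found for 99.44% of genes. A gene's exon length merges the exons of all its annotated transcripts and can exceed that of any single transcript. FPKM levels and the height of FPKM ratios rest on it, whereas their change between groups does not. Pseudocount, filter, scaling, replicate block, GC content and exon length, and leaving out each library were varied.

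The members and lists were chosen with earlier results of these data known. Values in every library are given for collagens with an adjusted p under 0.05, the 3 with the highest mean in each class and *Col1a1*, *Col1a2*, *Col2a1*, *Col3a1*, *Col4a1* and *Col4a2*. Listed genes past the cut-off of 0.85 were named, with a set of enzymes, receptors and laminins whatever their values. *Col27a1*, *Col28a1*, *Col5a3* and *Col6a3* are described beyond that rule and were chosen after their values were seen, as were listed genes below the cut-off (such as *P4hb*, *Sec23a*, *Mmp2* and *Timp2*) and the marker genes. The summed level and the full counts of the mesenchyme marker list are not reported here.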

Additional observations from a re-analysis of the deposited data

How the results depend on the processing

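Of the results on collagens, the number lower was 1 in limma and 2 with the edgeR likelihood ratio test, with the GC content and exon length correction, with that correction and the replicate block, and without adjustment of p. It was 0 to 1 when 1 library was left out. The number higher, 14, became 0 without the intensity trend and 0 with the log2 cut-off of 0.85, and 1 to 13 with 1 library left out. Fibrillar collagens lower were 0, and 1 with the GC content and exon length correction, with or without the replicate block (*Col27a1*). Fibrillar collagens higher were 6, but 3 with the replicate block, 3 with the correction, 3 with both, 0 without the trend, 0 with the cut-off and 0 to 5 with 1 library left out. Basement membrane collagens higher were 4, but 0 without the trend, 0 with the cut-off and 0 to 4 with 1 library left out. Other collagens lower were 1, but 2 with the edgeR likelihood ratio test and 2 without adjustment, and 0 to 1 with 1 library left out. Other collagens higher were 4, but 0 without the trend, 0 with the cut-off, 2 when *Col15a1*, *Col18a1* and *Col7a1* were counted as basement membrane, and 0 to 4 with 1 library left out. The causes were not tested. Each fit without 1 library also has fewer residual degrees of freedom for every gene, and the part of this in the counts was not tested.

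*Col2a1* changed sign to 0.00 (-0.003) with median scaling, -0.0617 with the GC content and exon length correction, and -0.0617 with that and the replicate block. It ranged from -0.0324 to 0.1387 with 1 library left out, and was negative without WT replicate 3 and without *Rdh10* KO replicate 3. *Col26a1* ranged from -0.1206 to 0.0872, and was positive without replicate 2 of either group. Over the other named genes recomputed under the 19 alternatives no direction changed. Of chains outside that set, *Col9a1*, *Col11a2*, *Col24a1*, *Col6a4*, *Col4a4*, *Col22a1*, *Col9a2*, *Col19a1*, *Col8a1*, *Col8a2* and *Col25a1* changed sign when 1 library was left out. With the replicate block 11 collagens were higher and 1 was lower. Same-numbered libraries did not deviate together (correlations of -0.07, -0.08 and -0.21), and pools of different embryos share a number only as a label. A count near the floor of 3 reads limits the chains with low values.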
